A study of Mus musculus with 12 samples.

Results

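The 9 genes described here, Cs, Idh3a, Idh3b, Idh3g, Ogdh, Dlst, Suclg1, Fh1 and Mdh2, encode enzymes or enzyme subunits of the tricarboxylic acid (TCA) cycle. They were taken by symbol, 9 of the 24982 gene symbols in the deposited tables, and all 9 passed the filter on low values in every comparison. Polyadenylated RNA of B lymphocytes from the spleens of mice aged 6 weeks was sequenced in 12 libraries, 4 per genotype, which the labels call biological replicates. Wild-type (WT) mice were C57BL/J6 according to the design text. Eμ-Myc mice carried a Myc transgene under the immunoglobulin heavy chain enhancer, an arrangement that raises Myc in the B lineage. Eμ-Myc; PRPS2 KO mice carried the same transgene and lacked PRPS2, which supplies nucleotide synthesis with phosphoribosyl pyrophosphate. The labels do not state the strain of the transgenic mice, the allele behind the knockout, or whether a spleen already held tumour cells.

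The TCA cycle runs in the mitochondrial matrix and oxidises the acetyl groups of acetyl-CoA to carbon dioxide, passing the electrons on as NADH and FADH2 to the respiratory chain. Its intermediates also leave the cycle as building blocks, citrate for lipids and oxaloacetate for aspartate, from which pyrimidines are made. In resting lymphocytes the cycle mainly serves energy supply, and growing or Myc-driven lymphocytes draw on it for synthesis as well and feed it with glutamine.

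The deposited value of a gene is its mean coverage per base. Which bases of a gene were averaged is not given. An order between genes, or the size of a ratio between them, therefore describes the deposited values and may not be that of the transcripts. Here each library was divided by a scaling factor, and the result is called scaled coverage. The sum of deposited coverage ran from 1277305.5 to 1885768.9 per library, and read depth is not given, so errors are SDs between libraries. Prps2 read 98.5 to 141 in WT libraries, 200 to 289 with Eμ-Myc alone and 16.3 to 18.4 where PRPS2 was knocked out, low where the labels say it should be low. Myc read 227 to 348 in WT and 1567 to 2315 in Eμ-Myc. The knockout libraries stood apart from each other, with Myc at 1105, 1728, 3034 and 3300 in libraries 1 to 4. All 9 genes of a B-cell marker list were at 1 or more in each library. A T-cell marker list of 12 genes summed to between 975 and 5541 in WT, to between 216 and 302 with Eμ-Myc alone, and to 1149, 1337, 85.9 and 83.7 in knockout libraries 1 to 4. None of the defining markers of the cell type lists was at 0 in all 4 libraries of a group. In RNA from a whole isolate, fewer cells of a type and less RNA per cell cannot be told apart.

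In WT the levels spanned about an order of magnitude, from Ogdh at 573 ± 26.6 scaled coverage (SD, n = 4) down to Idh3a at 48.4 ± 3.01. Ogdh stood above Idh3g (418 ± 37.9) in every library, and Idh3g and Mdh2 (344 ± 42.1) overlapped. Below them came Idh3b (290 ± 24.7) and Cs (166 ± 6.05), each separate from its neighbours. Suclg1 (122 ± 16.7), Fh1 (119 ± 29.4) and Dlst (108 ± 7.77) overlapped, and Idh3a lay below them in every library. In Eμ-Myc the top 4 genes, Idh3g, Ogdh, Mdh2 and Idh3b, overlapped with their neighbours in the order, between means of 689 ± 77.3 and 484 ± 36.5. Cs, Suclg1 and Fh1 followed at 239 ± 12.4, 225 ± 24.3 and 223 ± 26.4, also overlapping. Dlst (144 ± 7.73) and Idh3a (122 ± 8.11) remained the lowest, and every Dlst value lay above every Idh3a value. In the knockout libraries a gap without overlap separated Ogdh, Idh3g, Mdh2 and Idh3b from the other 5 genes.

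**Figure D1:**
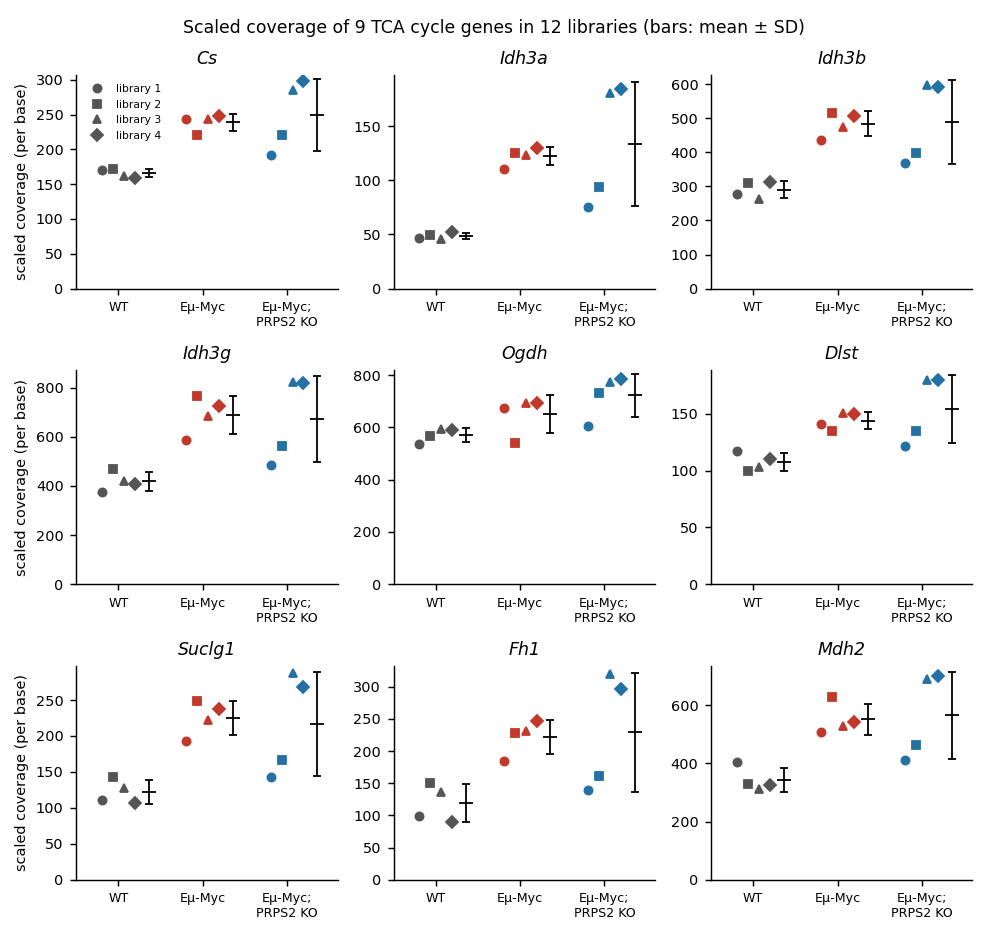
Scaled coverage per base of the 9 genes, 1 panel per gene, with 1 point per library and the mean ± SD of each group of 4 beside the points. Idh3a sits between 45.6 and 52.1 in WT and between 111 and 130 in Eμ-Myc, and knockout libraries 3 and 4 lie above the Eμ-Myc libraries in each panel.

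The first comparison, Eμ-Myc against WT, asks which genes differ when Myc is raised in B cells. Of the 9 genes, 8 rose and Ogdh did not pass the test (limma, Benjamini-Hochberg adjusted p under 0.05 over 12723 genes). For comparison, 30.4% of all genes tested were called higher, 24.7% lower and 55.1% were called in either direction. The 8 genes that rose were also those whose groups did not overlap, and 28.7% of all genes tested had Eμ-Myc above WT without overlap. The median log2 fold change of the 9 genes was 0.72, against -0.01 over all genes tested. Total coverage scaling in place of trimmed means moved the median of all genes by -0.18, and changed the percentage of called genes that were higher from 55.2% to 42.0%.

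The cycle starts with citrate synthase (Cs, chr10:128337734-128362479, plus strand, GRCm38), which joins acetyl-CoA to oxaloacetate. Cs read 170, 172, 162 and 159 in WT libraries 1 to 4, and 244, 221, 243 and 248 in Eμ-Myc libraries 1 to 4. All Eμ-Myc values lay above all WT values, and the WT values were the tightest of the 9 genes, with a coefficient of variation of 3.65%. Cs rose 1.44-fold, with log2 fold change 0.53 (SE 0.08, limma adjusted p = 0.000671). A close relative, Csl, shares 91.9% of 1522 aligned transcript bases with Cs, and its deposited coverage was at most 0.1 in each library.

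NAD-dependent isocitrate dehydrogenase, which turns isocitrate into 2-oxoglutarate, is built from the catalytic subunit Idh3a (chr9:54586334-54604661, plus strand) and the subunits Idh3b (chr2:130279309-130284547, minus strand) and Idh3g (chrX:73778963-73786897, minus strand). Idh3a read 46.3, 49.7, 45.6 and 52.1 in WT and 111, 125, 123 and 130 in Eμ-Myc. This was the largest change of the 9 genes, 2.51-fold, from a level at which Idh3a was the lowest of them (log2 fold change 1.33, SE 0.09, limma adjusted p = 5.88e-06). Idh3b read 276, 309, 262 and 312 in WT and 436, 516, 475 and 507 in Eμ-Myc, a rise of 1.67-fold (log2 fold change 0.74, SE 0.10, limma adjusted p = 0.000261). Idh3g read 377, 468, 419 and 409 in WT and 585, 765, 684 and 725 in Eμ-Myc, 1.64-fold higher (log2 fold change 0.72, SE 0.11, limma adjusted p = 0.000624). The 3 subunit genes thus rose without overlap between groups, with the largest estimate for Idh3a. Idh3b shares 5 exonic bases with Nop56 on the opposite strand in the annotation.

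The 2-oxoglutarate dehydrogenase complex carries out the next oxidation, with Ogdh (chr11:6291633-6356642, plus strand) as its decarboxylating subunit and Dlst (chr12:85110833-85134845, plus strand) as the succinyl transferase core. Ogdh read 537, 568, 595 and 590 in WT and 676, 542, 692 and 694 in Eμ-Myc. Eμ-Myc library 2 lay within the WT range, and the other 3 Eμ-Myc libraries lay above it. The log2 fold change of Ogdh was 0.18 (SE 0.11, 95% interval -0.06 to 0.42, limma adjusted p = 0.177), and -0.0036 under total coverage scaling. Without Eμ-Myc library 2, Ogdh passed the test at a log2 fold change of 0.26 (limma adjusted p = 0.0230). Dlst read 117, 100, 103 and 110 in WT and 141, 135, 151 and 150 in Eμ-Myc, with no overlap. It rose 1.34-fold (log2 fold change 0.42, SE 0.09, limma adjusted p = 0.00371), the smallest rise among the 8 genes called, and missed the threshold under total coverage scaling (log2 fold change 0.24, adjusted p = 0.0616).

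The last steps regenerate oxaloacetate. Suclg1 (chr6:73248382-73276911, plus strand) is the alpha subunit of succinyl-CoA ligase, shared by the ATP-forming and GTP-forming enzymes. Suclg1 read 111, 143, 128 and 107 in WT and 193, 249, 222 and 237 in Eμ-Myc, a rise of 1.84-fold (log2 fold change 0.88, SE 0.13, limma adjusted p = 0.000332). Fh1 (chr1:175600374-175625635, minus strand) is fumarase, which hydrates fumarate to malate. Fh1 read 98.9, 151, 136 and 89.1 in WT and 185, 229, 231 and 246 in Eμ-Myc, and rose 1.91-fold (log2 fold change 0.93, SE 0.18, limma adjusted p = 0.00182). Its WT values were the most spread of the 9 genes, with a coefficient of variation of 24.8%, and still lay below each Eμ-Myc value. Mdh2 (chr5:135778480-135790398, plus strand) is the mitochondrial malate dehydrogenase. Mdh2 read 406, 331, 313 and 326 in WT and 509, 629, 529 and 544 in Eμ-Myc, 1.61-fold higher without overlap (log2 fold change 0.69, SE 0.11, limma adjusted p = 0.000866).

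**Figure D2:**
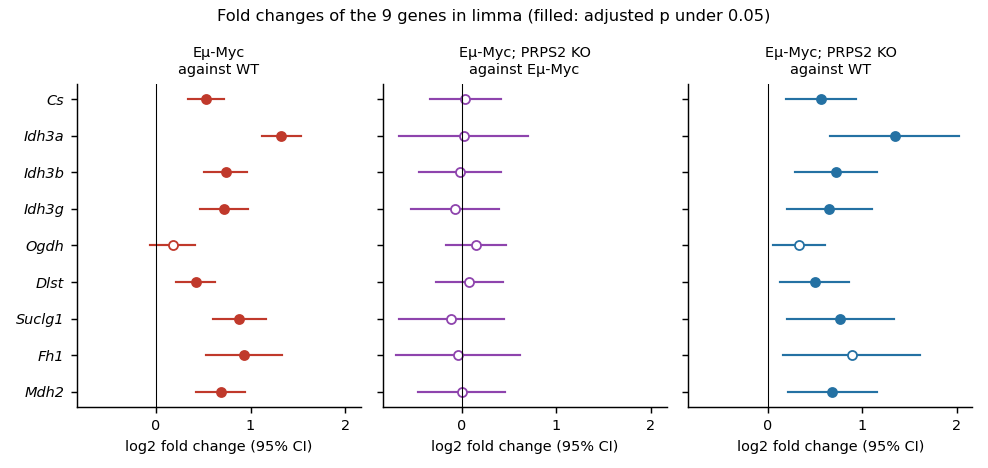
Log2 fold change of each of the 9 genes in the 3 comparisons, from limma on log2 scaled coverage with a pseudocount of 0.5, where points are estimates, bars are 95% confidence intervals and filled points passed an adjusted p of 0.05. In Eμ-Myc against WT the estimates run from 0.18 for Ogdh to 1.33 for Idh3a, and in Eμ-Myc; PRPS2 KO against Eμ-Myc each interval crosses 0.

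Other genes moved along the same contrast. A list of 13 proliferation genes summed to between 499 and 676 scaled coverage in WT and to between 2611 and 3540 in Eμ-Myc, and all 13 of its genes rose. The T-cell list fell in 12 of 12 genes, and 5 of the 5 mature B-cell markers tested fell. The NK-cell list fell in 7 of 7 genes, with sums of 350 to 1427 in WT and 90.7 to 248 in Eμ-Myc. The 8 genes of an immature B-cell list summed to between 435 and 781 in WT and to between 1312 and 1980 in Eμ-Myc, where 5 of them rose and 1 fell. Of these 5, Vpreb1, Igll1 and Rag2 reached a scaled coverage of 1 in each Eμ-Myc library and in at most 1 WT library. They thus passed the filter through the group where they were high. Without them 2 of 5 genes of this list rose and 1 fell. Of the B-cell list 2 of 9 genes fell, of the platelet list 1 of 6 and of a stroma and endothelium list 1 of the 2 tested. Of the plasma cell list 1 of 5 genes rose and 1 fell. Among all genes tested 24.7% were called lower and 30.4% higher, so these few calls do not set such lists apart. The myeloid list had 0 of 10 genes called by limma and 0 at an unadjusted p under 0.05, and the erythroid list 0 of 8 and 1. Of all genes tested 55.1% were called in either direction, so at least that share had an unadjusted p under 0.05. The part of cell division, B-cell stage and other cell types in the rise of the 8 cycle genes was not tested.

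The second comparison, Eμ-Myc; PRPS2 KO against Eμ-Myc, asks what PRPS2 loss adds on the Myc background. None of the 9 genes passed the test, and 0 had an unadjusted p under 0.05 (limma, 12575 genes tested). Among all genes tested, 0.00795% were called, a single gene (Prps2), and 0.962% had an unadjusted p under 0.05. The estimates of the 9 genes ran from a log2 fold change of -0.11 for Suclg1 to 0.15 for Ogdh, each with an adjusted p of 1.00 in limma. The intervals were wide: for Idh3a the estimate was 0.02 with a 95% interval from -0.67 to 0.70, and for Fh1 -0.04 with an interval from -0.70 to 0.61. The narrowest was that of Ogdh, from -0.17 to 0.47. The intervals of the other genes ran from -0.33 to 0.41 for Cs, -0.45 to 0.42 for Idh3b, -0.53 to 0.40 for Idh3g, -0.28 to 0.43 for Dlst, -0.67 to 0.44 for Suclg1 and -0.46 to 0.46 for Mdh2. The comparison shares its Eμ-Myc libraries with the first one.

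Apart from Ogdh, the knockout libraries differed from each other in these genes more than the libraries of the other groups did. Idh3a read 74.9, 93.6, 180 and 184 in knockout libraries 1 to 4, around the Eμ-Myc range of 111 to 130. Fh1 read 139, 161, 320 and 296, around the Eμ-Myc range of 185 to 246. Libraries 1 and 2 were low and libraries 3 and 4 high for both genes, with no knockout value inside the Eμ-Myc range. Suclg1 read 143, 167, 288 and 269, and Idh3b read 370, 397, 598 and 591, in the same arrangement. Idh3g (486, 560, 825 and 819) and Mdh2 (412, 462, 689 and 700) also had libraries 1 and 2 below and libraries 3 and 4 above each Eμ-Myc library. Cs read 192, 220, 286 and 299, and Dlst read 122, 135, 180 and 180, so that library 2 was close to the lowest Eμ-Myc library in both. Ogdh read 604, 730, 774 and 785, with libraries 2, 3 and 4 above each Eμ-Myc library and library 1 within their range.

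Counted over the 9 genes, knockout library 1 lay below each Eμ-Myc library in 8 genes and library 2 in 7. Libraries 3 and 4 lay above each Eμ-Myc library in 9 of 9 genes. Over the 12969 genes that passed the filter in all libraries together, 36.4% and 35.7% lay above the Eμ-Myc range in libraries 3 and 4, and 36.4% and 29.5% lay below it in libraries 1 and 2. The median difference of the 9 genes from the Eμ-Myc mean was -0.42, -0.28, 0.32 and 0.32 on the log2 scale in knockout libraries 1 to 4. The median coefficient of variation of the 9 genes was 8.52% for WT, 9.59% for Eμ-Myc and 26.1% for the knockout group. Over all genes the corresponding medians were 16.1%, 15.6% and 28.2%. Among the 9 genes, the knockout coefficient of variation ran from 11.5% for Ogdh to 42.8% for Idh3a. That of Ogdh was nearly the same in Eμ-Myc, at 11.2%.

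**Figure D3:**
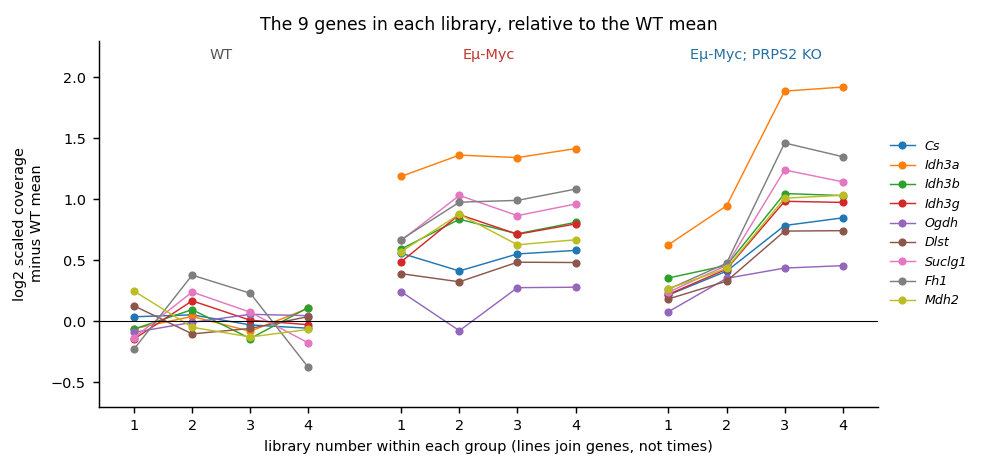
Log2 scaled coverage of each of the 9 genes in each library, less that gene's WT mean, with lines that join the values of a gene within a group and stand for no order in time. In knockout library 1 the median over the 9 genes is 0.24, in library 2 it is 0.43, and in libraries 3 and 4 it is 1.01 and 1.03.

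Marker lists moved along with this spread. The proliferation list summed to 1522, 2167, 4618 and 4594 scaled coverage in knockout libraries 1 to 4, outside the Eμ-Myc range of 2611 to 3540 in each library. The T-cell list ran the other way, from 1149 and 1337 in libraries 1 and 2 to 85.9 and 83.7 in libraries 3 and 4. The mature B-cell list read 2188, 1954, 484 and 542, the NK-cell list 593, 441, 23.6 and 22.3, and the myeloid list 16648, 12162, 3152 and 1467. The plasma cell list (312, 387, 155 and 182) and the stroma and endothelium list (386, 343, 155 and 165) were also higher in libraries 1 and 2. The immature B-cell list was lower in them, at 949, 1045, 1618 and 1489, beside 1312 to 1980 in Eμ-Myc. The platelet list read 145, 42.0, 38.0 and 41.5 and the erythroid list 102, 89.5, 127 and 133. The B-cell list stayed between 7238 and 8143 in the 4 libraries. The part of these cell types and of cell division in the spread of the cycle genes was not tested. When limma weighted libraries by their quality, knockout libraries 1 and 2 received weights of 0.0820 and 0.129 and libraries 3 and 4 weights of 3.19 and 7.73. With these weights 9 of 9 genes were called higher in the knockout group, with Idh3a at a log2 fold change of 0.55. Of all 12575 genes tested 3905 were called higher, and 59.3% were called in either direction. Leaving out any 1 library without weights gave 0 calls among the 9 genes.

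The third comparison sets the knockout group against WT, and it shares its libraries with the other comparisons. Of the 9 genes, 7 rose (limma, 12710 genes tested), against 19.7% of all genes called higher, 9.58% lower and 29.3% called in either direction. Idh3a again had the largest estimate, 2.54-fold (log2 fold change 1.35, SE 0.30, limma adjusted p = 0.0218). Mdh2 rose 1.61-fold (0.69, SE 0.20, adjusted p = 0.0413), Idh3b 1.65-fold (0.72, SE 0.19, adjusted p = 0.0316) and Idh3g 1.57-fold (0.65, SE 0.20, adjusted p = 0.0424). Suclg1 passed narrowly at 1.70-fold (0.77, SE 0.25, adjusted p = 0.0481), although knockout library 1 at 143.36 lay just below WT library 2 at 143.48. Cs rose 1.48-fold (0.56, SE 0.16, adjusted p = 0.0370) and Dlst 1.41-fold (0.50, SE 0.16, adjusted p = 0.0474). With median-of-ratios scaling Suclg1 (adjusted p = 0.0534) and Dlst (0.0579) missed the threshold. Fh1 did not pass (log2 fold change 0.89, 95% interval 0.16 to 1.61, limma adjusted p = 0.0618), and neither did Ogdh (0.33, 95% interval 0.06 to 0.60, adjusted p = 0.0650). Both passed with all 12 libraries in 1 limma fit (adjusted p = 0.0232 for Fh1 and 0.0409 for Ogdh), where 6064 of all genes were called. Both also passed with library quality weights, where 10511 of all genes were called. Fh1 passed as well with a filter of 10 or more in each library (limma adjusted p = 0.0493). Ogdh nevertheless had each knockout value above each WT value. This held for 7 of the 9 genes, Suclg1 and Fh1 being the exceptions, and for 22.2% of all genes tested.

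Most of these calls were lost when a single library was left out. Leaving out WT library 1, 2, 3 or 4, or knockout library 3 or 4, gave 0 of 9 genes called. Leaving out knockout library 1 gave 9 of 9, and leaving out knockout library 2 gave 7. Over these 8 fits the log2 fold change ran from 1.15 to 1.58 for Idh3a, from 0.61 to 0.84 for Idh3b and from 0.29 to 0.41 for Ogdh, around 1.35, 0.72 and 0.33 with all libraries. Over all genes the calls moved from 3718 to between 601 and 6628. Without a filter on low values 3 of the 9 genes were called. With the replicate number of the labels as a block 1 of the 9, Idh3a, was called, beside 1863 of all genes. The proliferation list summed to 1522 or more in each knockout library, above the WT range, and 13 of its 13 genes rose. Of the immature B-cell list 5 of 8 genes rose, among them the 3 that passed the filter through the transgenic group. Without these 3, 2 of 5 rose, beside 19.7% of all genes tested called higher. Of the mature B-cell list 2 of 5 genes fell, of the platelet list 4 of 6 and of the B-cell list 1 of 9, beside 9.58% of all genes tested. The T-cell list had 0 of 12 genes called by limma and 8 at an unadjusted p under 0.05, and the NK-cell list 0 of 7 and 2. The plasma cell, myeloid and erythroid lists had 0 calls and 0 at an unadjusted p under 0.05. The stroma and endothelium list had 0 calls and 1 at such a p. Of all genes tested 29.3% were called in either direction, so at least that share had an unadjusted p under 0.05. The part of these cell types and of cell division in this comparison was not tested.

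Ratios between subunits of a complex were taken within each library, where the scaling between libraries cancels. Idh3a:Idh3b was 0.168, 0.161, 0.174 and 0.167 in WT libraries 1 to 4, and 0.254, 0.242, 0.259 and 0.256 in Eμ-Myc. The groups did not overlap, and Idh3a gained on Idh3b by 0.59 on the log2 scale (SE 0.03, exact two-sided permutation p = 0.0286, adjusted p = 0.0857 over 6 tests). Idh3a:Idh3g was 0.116 ± 0.0104 (SD, n = 4) in WT and 0.178 ± 0.0108 in Eμ-Myc, a difference of 0.61 on the log2 scale without overlap (exact permutation p = 0.0286, adjusted p = 0.0857). With 4 libraries against 4, 0.0286 is the smallest p that the 70 arrangements allow, so these ratios could not pass after adjustment unless more of the 6 tests had reached it.

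Ogdh:Dlst was 5.34 ± 0.545 in WT and 4.51 ± 0.334 in Eμ-Myc (log2 difference -0.24, exact permutation p = 0.114, adjusted p = 0.229). WT library 1, at 4.57, lay within the Eμ-Myc values, which ran from 4.03 to 4.79. In the knockout group Idh3a:Idh3b was 0.203, 0.236, 0.302 and 0.312 in libraries 1 to 4. Libraries 1 and 2 lay below and libraries 3 and 4 above the Eμ-Myc libraries, as for the levels themselves. The knockout and Eμ-Myc means differed by 0.04 on the log2 scale for Idh3a:Idh3b (exact permutation p = 0.914), 0.09 for Idh3a:Idh3g (p = 0.514) and 0.07 for Ogdh:Dlst (p = 0.486).

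**Figure D4:**
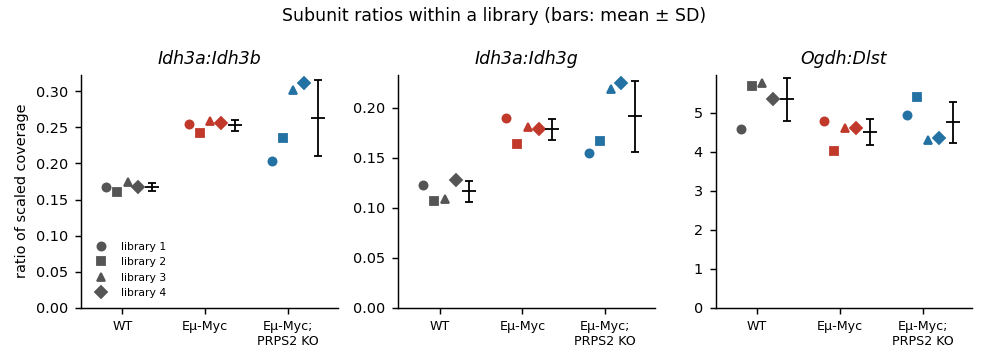
Ratios of scaled coverage between subunit genes of isocitrate dehydrogenase and of the 2-oxoglutarate dehydrogenase complex, with 1 point per library and the mean ± SD of each group of 4. Idh3a:Idh3b lies between 0.161 and 0.174 in WT and between 0.242 and 0.259 in Eμ-Myc, and spreads from 0.203 to 0.312 in the knockout libraries.

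Genes around the 9 were counted in 6 lists of 57 genes, of which 53 could be tested. In Eμ-Myc against WT 36 of the 53 rose and 2 fell, with a median log2 fold change of 0.73, beside 30.4% of all genes higher, 24.7% lower and a median of -0.01. Without Gls2, the only one of the 53 under a scaled coverage of 1 in any of these libraries, 35 of 52 rose. Of the remaining cycle enzymes 9 of 9 tested rose, between a log2 fold change of 0.35 for Sdha and 1.17 for Sdhd, and Ogdhl was too low to test. Sdhd, a membrane anchor of succinate dehydrogenase, went from 140 ± 11.8 to 318 ± 37.4 scaled coverage (SD, n = 4). Mrps36, an adaptor of the 2-oxoglutarate dehydrogenase complex, rose by 1.09 on the log2 scale, and Suclg2, the beta subunit of the GTP-forming succinyl-CoA ligase that pairs with Suclg1, by 0.95.

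Pyruvate entry had 6 of 13 genes higher and 0 lower, with a median log2 fold change of 0.34. Pcx, pyruvate carboxylase, was highest among them at a log2 fold change of 1.11, from a low level of 2.82 ± 0.576 in WT. Dlat and Pdha1, subunits of pyruvate dehydrogenase, rose by 0.96 and 0.85. Of the isoforms outside the NAD-linked cycle 4 of 6 rose (2 under total coverage scaling), led by Idh2, the NADP-dependent mitochondrial isocitrate dehydrogenase (log2 fold change 1.40, limma adjusted p = 5.74e-06). Mdh1, the cytosolic counterpart of Mdh2, rose by 0.91, from 416 ± 61.1 to 781 ± 93.7, and Acly, which splits exported citrate, by 0.50.

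Carriers and the aspartate shuttle had 5 genes higher and 2 lower of 7. Got1 and Got2, the aspartate aminotransferases, rose by 1.43 and 1.08 on the log2 scale. The aspartate-glutamate carriers went in opposite directions, with Slc25a13 higher by 1.16 and Slc25a12 lower (-0.52, limma adjusted p = 0.00222). Slc25a11, the malate carrier, was also lower (-0.45, adjusted p = 0.0152). For glutamine entry 2 of 4 genes were called higher, the transporter Slc1a5 by 1.11 and Gls2, at 0.530 ± 0.391 in WT and 2.02 ± 0.690 in Eμ-Myc. Gls2 reached a scaled coverage of 1 in 4 Eμ-Myc libraries and 1 WT library, so it passed the filter through the group where it was high, and its call supports nothing; without it 1 of 3 genes rose. With all 12 libraries in 1 fit, or with a filter of 10 or more in each library, which Gls2 cannot pass, 1 gene of this list was called. Of the genes for the mitochondrial outer membrane and upkeep of mitochondrial DNA 10 of 14 rose, led by Tomm40 (1.44), Twnk (1.28) and Vdac1 (1.22).

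Against Eμ-Myc, the knockout group had 0 of the 53 neighbouring genes called by limma and 0 at an unadjusted p under 0.05, and 42 called with library quality weights, under which 59.3% of all genes were called. Their median log2 fold change was -0.01, beside -0.03 for all genes tested. Against WT, 25 of the 53 rose and 2 fell, Slc25a12 (-0.47) and Slc25a11 (-0.71), beside 19.7% of all genes higher and 9.58% lower. Without Gls2, which here too was at 1 or more in 1 WT library, 24 of 52 rose. Got1 (1.40), Idh2 (1.31) and Tomm40 (1.40) were among those that rose. Leaving out 1 library moved the calls in these lists from 27 to between 2, without WT library 3, and 42, without knockout library 1. The count was 3, 3 and 6 without WT libraries 1, 2 and 4, and 4 without knockout library 3 or 4. With library quality weights 49 were called, beside 10511 of all 12710 genes tested. The replicate number as a block gave 10, beside 1863 of all genes.

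The 9 genes varied together over the 12 libraries. The median Pearson r of a gene with the other 8 was 0.91 to 0.96 for 8 of them and 0.70 for Ogdh, which also had the narrowest range, 0.55 on the log2 scale against 2.00 for Idh3a. The points share libraries and scaling, and the group means enter the correlation. Among 9654 other genes that averaged a scaled coverage of 8 or more, the 5 whose profile was most like the mean profile of the 9 were Cinp, Psmd1, Cdc123, Eif1ax and Immt. Their r over the 12 libraries ran from 0.997 to 0.999. Cinp encodes a protein linked to replication, Psmd1 a proteasome subunit, Eif1ax a translation initiation factor and Immt the mitofilin of the inner mitochondrial membrane. Immt averaged 811 in WT and 1746 in Eμ-Myc, and read 1102, 1398, 2502 and 2504 in knockout libraries 1 to 4.

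Since 8 of the 9 genes rose together in Eμ-Myc, the sequence at their starts was searched for short motifs. The RefSeq (GRCm38.p6) windows used here run from 250 bases before to 50 after the start. They covered 8 of the 9 genes with 13 windows in all, since Ogdh has 6. The set used held no window for Idh3a. Both strands were searched, and a share is given over all 32851 windows of that length. CACGTG, the E-box that Myc and Max can bind, was found in 7.15% of all windows and in 3 of the 13, all of Ogdh. CCGGAAG, a motif of ETS-type factors, was in 8.86% of all windows and in 3 of the 13, those of Idh3b, Idh3g and Dlst. GGGCGG, a GC box, was in 35.7% of all windows and in 8 of the 13, of Cs, Ogdh, Dlst, Fh1 and Mdh2. CCAAT was in 37.4% of all windows and in 9 of the 13, of Cs, Idh3b, Ogdh and Fh1. The 6 Ogdh windows partly overlap and so count some matches more than once. A form of the NRF1 motif (GCGCA, any base, GCGC) was in 4.6% of all windows and in none of the 13. No matches of different motifs overlapped in these windows. A match describes letters only, and a missing match says only that the letters are not in the window.

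For each of the 4 genes with a CACGTG or CCGGAAG match, a stretch that holds it is printed from 150 bases before to 30 after the RefSeq start, 5′ to 3′ on the gene's strand, with the match in capitals (CTTCCGG is CCGGAAG read on the other strand). They are Idh3b at chr2:130284422-130284601 (minus strand), Idh3g at chrX:73786868-73787047 (minus strand), Dlst at chr12:85110683-85110862 (plus strand) and the fourth Ogdh window at chr11:6292020-6292199 (plus strand).
Idh3b: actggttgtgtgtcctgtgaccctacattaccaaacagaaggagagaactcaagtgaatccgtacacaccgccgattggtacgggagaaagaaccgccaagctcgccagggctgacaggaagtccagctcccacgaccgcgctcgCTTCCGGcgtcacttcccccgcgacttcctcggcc
Idh3g: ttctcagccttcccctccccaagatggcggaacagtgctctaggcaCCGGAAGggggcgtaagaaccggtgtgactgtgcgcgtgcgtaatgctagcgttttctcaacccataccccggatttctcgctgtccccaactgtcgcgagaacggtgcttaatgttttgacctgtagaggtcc
Dlst: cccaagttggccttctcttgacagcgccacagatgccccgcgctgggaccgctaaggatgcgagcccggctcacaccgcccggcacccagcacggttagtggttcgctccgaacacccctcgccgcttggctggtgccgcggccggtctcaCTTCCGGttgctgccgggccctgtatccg
Ogdh: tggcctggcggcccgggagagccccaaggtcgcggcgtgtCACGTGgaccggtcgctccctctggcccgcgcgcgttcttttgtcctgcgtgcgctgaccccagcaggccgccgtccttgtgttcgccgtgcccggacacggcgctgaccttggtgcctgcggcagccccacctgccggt
In Idh3b the match begins 5 bases before the annotated start, in Dlst at base 2 from the start, and in Idh3g 104 bases before it. The Ogdh match begins 110 bases before the fourth of its annotated starts.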

How the data were processed

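The 12 libraries were made from polyadenylated RNA with a directional kit, per the labels' protocols. The authors deposited 1 table per library, which lists 24982 symbols and a coverage signal averaged over the bases of each gene. The submitters' processing notes name the genome build mm10, DESeq and R 4.3.3 without a role, and the aligner, the counting step and the annotation are not given in the sources used here. Since coverage is not a read count, no count model was used.

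Coverage was divided by a factor per library from unweighted trimmed means of log ratios (trimming 30% of the ratios and 5% of the means from either end). A gene was tested if 4 or more of the 8 libraries compared had a scaled coverage of 1 or more. The test was done with limma 3.58.1 in R 4.3.3, two-sided, with a trended and robust prior, on log2(scaled coverage + 0.5). Fold changes are on that scale, which understates the change of low genes. Calls were made at 0.05 after Benjamini-Hochberg adjustment across each comparison's genes. Ratios were compared by exact two-sided permutation tests. The limma fit was also run on simulated data, in which each gene was drawn independently with the same SD in both groups. Those data lack the split of the knockout libraries, so the run is no test of the fits under it. Python 3.11.15, pandas 2.3.3, scipy 1.17.1 and matplotlib 3.10.9 made the tables and figures.

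The 9 genes and the lists were chosen with earlier results of these data known. By rule, up to 3 called genes each way with the largest change were named from each neighbouring list, with the 5 genes most like the mean profile, leaving out Gm and Rik symbols. Genes named outside the rule, Sdha and Ogdhl, were chosen after their values were seen. Positions come from GENCODE M21 (GRCm38) and promoter windows from RefSeq (GRCm38.p6), the build called mm10.

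The labels number the libraries 1 to 4 in each group. Deviations of same-numbered knockout and Eμ-Myc libraries from their group means correlated over 12969 genes with r of 0.637, 0.187, 0.243 and 0.595. Libraries of different number correlated as well: r was 0.249 and 0.578 between libraries 1 and 2, 0.586 and 0.298 between libraries 3 and 4, and -0.188 to -0.636 across these sets. The values thus separate libraries 1 and 2 from 3 and 4 and do not single out pairs by number, and no label says what a number marks. The replicate number entered as a block in an alternative fit. The alternatives were other scalings, pseudocounts and filters, all 12 libraries in 1 fit, the block, library quality weights and leaving out each library.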

Additional observations from a re-analysis of the deposited data

Results flagged for a closer look

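Among 27 groups of 4 libraries, the 9 genes in 3 genotypes, 1 held a library far from the others. Ogdh read 542.1239 scaled coverage in Eμ-Myc library 2, against 676, 692 and 694 in the other 3 libraries of the group. The gap to the nearest library made up 0.882 of the group's range, above Dixon's critical value of 0.829 for 4 values. Chance alone gives about 1 such library in 20 groups. For the other 8 genes Eμ-Myc library 2 was not marked in this way, and it held the highest Eμ-Myc value of Idh3b, Idh3g, Suclg1 and Mdh2 and the lowest of Cs and Dlst.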

How the results depend on the processing

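In Eμ-Myc against WT the count of the 9 genes called stayed between 7 and 9 under the alternatives run, and between 8 and 9 when 1 library was left out. Over all genes the calls ran from 5770 to 6858 when 1 library was left out, against 7016 with all libraries. Ogdh was the gene that reversed, at -0.0036 under total coverage scaling. With the replicate number as a block 8 of the 9 genes were called.

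In Eμ-Myc; PRPS2 KO against Eμ-Myc library quality weights gave 9 of the 9 genes and 7456 of all genes, and turned the sign of Idh3b (0.29), Idh3g (0.25), Suclg1 (0.29), Fh1 (0.39) and Mdh2 (0.37). Idh3b and Mdh2, both near 0, also turned under median-of-ratios scaling (0.00734 and 0.024) and total coverage scaling (0.011 and 0.027). The cause was not tested. Leaving out 1 library gave log2 fold changes from -0.0553 to 0.16 for Cs, -0.17 to 0.26 for Idh3a, -0.12 to 0.11 for Idh3b, -0.18 to 0.0766 for Idh3g, -0.0028 to 0.18 for Dlst, -0.27 to 0.0665 for Suclg1, -0.23 to 0.17 for Fh1 and -0.12 to 0.14 for Mdh2. For Ogdh it gave 0.0653 to 0.24. For the ratios it gave log2 differences from -0.0539 to 0.15 for Idh3a:Idh3b, 0.00139 to 0.18 for Idh3a:Idh3g and 0.00855 to 0.12 for Ogdh:Dlst. The block gave 0 genes here and changed no call.

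In Eμ-Myc; PRPS2 KO against WT no filter gave 3 genes, and leaving out 1 library gave 0 to 9. Over all genes the calls were 6064 with all 12 libraries in 1 fit, 10511 with quality weights, and 601 to 6628 with 1 library left out. The numbers do not pair these libraries (r of 0.391, -0.407, 0.136 and -0.0625 for same-numbered knockout and WT libraries, and 0.223, -0.0969, 0.250 and 0.128 for Eμ-Myc and WT), and with the block 1 gene of the 9 (Idh3a), 10 of the 53 neighbouring genes and 1863 of all genes were called. For the ratios the block leaves the differences as they are by arithmetic, so an unchanged difference is no test of the block there. Depth is unknown, and 4 libraries per group limit the precision of each value.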
